A study of Mus musculus with 6 samples.

Results

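Lysosomal enzymes and the machinery that brings lysosomes to the cell surface were followed in gastrocnemius muscle of mice that lack dysferlin. The set was fixed by symbol: Smpd1, Asah1, Lamp1, Lamp2, Ctsb, Ctsd, Ctsl, Syt7, Vamp7 and Tfeb, 10 genes in all. Rows of the deposited count matrix matched 9 of these 10 by gene ID among 57010 genes, and all 9 passed the filter on low counts that left 15589 genes for testing. Vamp7, the vesicle SNARE of lysosome fusion, was not analysed here. The measured quantity is RNA, so enzyme activity and lysosome number were not assessed.

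When the membrane of a muscle fibre tears, calcium enters and lysosomes near the surface fuse with the plasma membrane, a step triggered by the calcium sensor synaptotagmin 7 and carried out by SNARE proteins. The enzymes released outside then act on the membrane: acid sphingomyelinase (Smpd1) turns sphingomyelin into ceramide, acid ceramidase (Asah1) breaks ceramide down, and the cathepsins B, D and L cut proteins. Lamp1 and Lamp2 coat the inside of the lysosomal membrane, and the transcription factor Tfeb switches on many lysosomal genes. Dysferlin is a calcium-binding membrane protein of the fibre that takes part in the same resealing.

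Libraries came from 3 mutants, homozygous for Dysf prmd in the strain B6.A-Dysfprmd/GeneJ, and 3 wild-type C57BL/6 controls. All 6 animals were untreated adults aged 3 months, and each was an independent replicate per the labels. Controls 1, 2 and 3 and mutant 3 were male, and mutants 1 and 2 were female, so no female control was available and sex and genotype are only partly separable. With sex as a covariate, the difference between mutants and controls therefore rests on mutant 3 alone. Mutants carry the lesion in every cell of the animal, and whole muscle was used, so fewer cells of a type and less RNA per cell cannot be told apart.

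The matrix held 35042245 to 43733641 read pairs per library. Levels are given as CPM, counts scaled to library size with the trimmed mean of M-values (TMM). Dysf checked the labels: it stood at 72.3, 99.8 and 145 CPM in controls 1, 2 and 3 and at 15.8, 14.7 and 20.3 CPM in mutants 1, 2 and 3, and it fell by 2.64 on the log2 scale (SE 0.28, edgeR adjusted p = 0.0249). Ifi202b, which C57BL/6 mice are known not to express, ran from 1.02 to 7.69 CPM in controls and had 0 read pairs over the 3 mutants. The same holds for H2-Ea-ps, with 2.37 to 3.44 CPM in controls and 1 read pair over the mutants. The controls thus do not match their C57BL/6 label in these genes, and strain and loss of dysferlin cannot be told apart below. Control 2 stood apart in genes of denervated and regenerating fibres, whose summed level was 995 CPM there and 47.2 to 99.7 CPM elsewhere. Most of that sum came from Sln (678 CPM in control 2) and Chrna1 (169 CPM), and not every gene of the list was highest there.

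In mutant muscle none of the 9 lysosomal genes passed the test at an adjusted p below 0.05, either higher or lower. Over all genes 0.199% passed (31 of 15589), 0.0128% higher and 0.186% lower in the mutants. Lamp1, Ctsb and Ctsd were the most abundant in both groups and Syt7 was the scarcest. The edgeR quasi-likelihood test gave 0 of 9 members at an unadjusted p below 0.05, where 6.94% of all genes reached that level. DESeq2 (1.18% of all genes called), limma-voom and the authors' deposited table (1.19% called) also called 0 of 9. The log2 fold changes (mutant minus control) ran from -0.23 for Lamp2 to 0.48 for Tfeb, with 6 of 9 above 0 and a median of 0.05. Over all genes tested 49.8% were above 0 and the median was -0.0015.

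**Figure D1:**
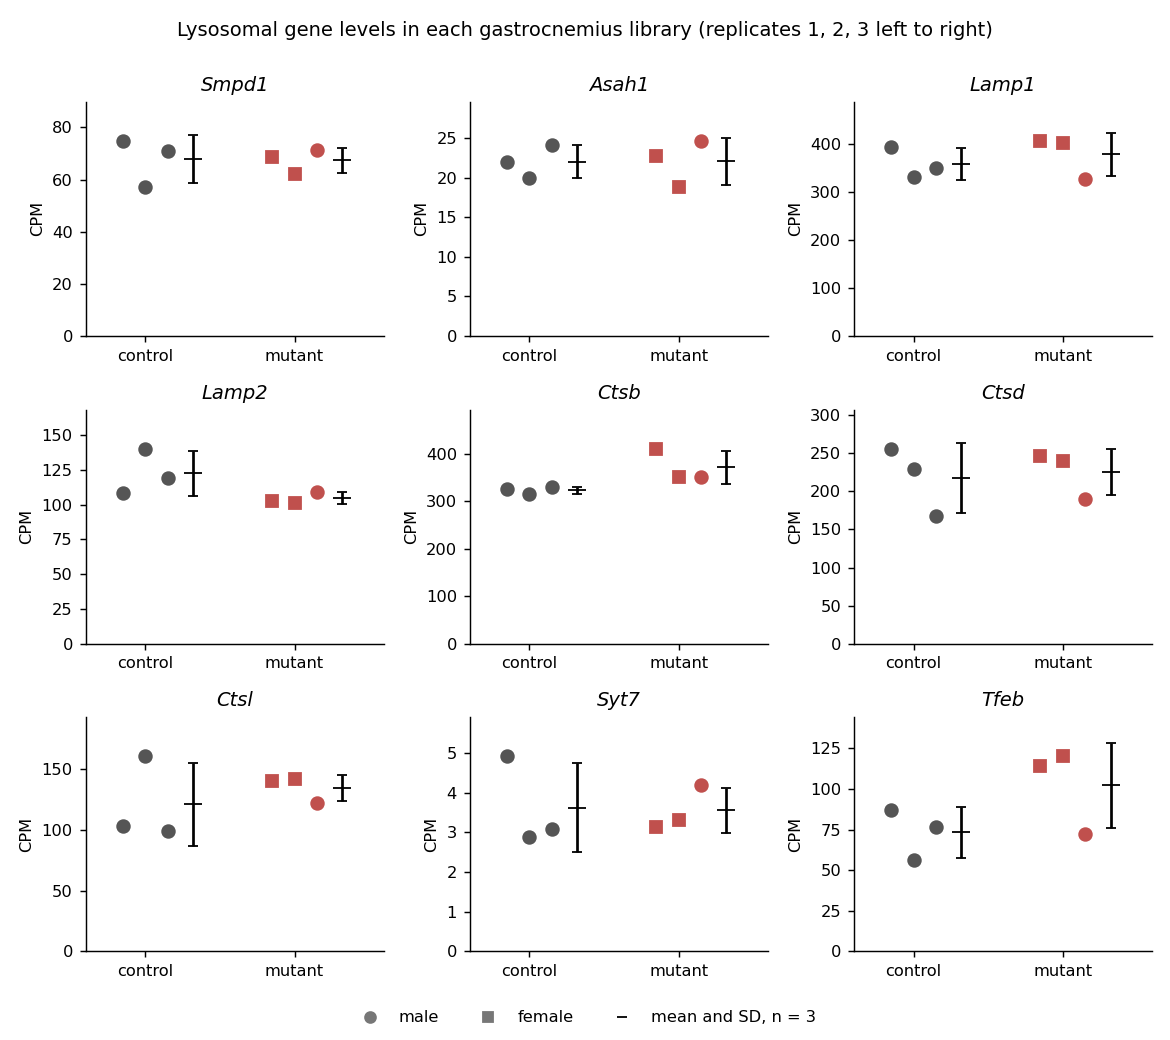
Levels in CPM (vertical axes, each starting at 0) of the 9 lysosomal genes in the 3 control libraries (grey) and the 3 mutant libraries (red); circles are males, squares are females, and the black bar is the mean with its SD. Groups overlap in every panel except Ctsb. In every panel but Ctsb the male mutant lies outside the span of the female mutants, below it in Tfeb, Lamp1, Ctsd and Ctsl and above it in the others.

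Lysosomal transcripts in muscle differed widely in amount. Per length of exon (FPKM, which is CPM divided by exon length in kilobases, lengths from GENCODE M21), the control means were 134 ± 12.3 for Lamp1, 92.5 ± 19.5 for Ctsd and 53.4 ± 1.20 for Ctsb (SD, n = 3). Next came Smpd1 at 20.3 ± 2.77 FPKM, Ctsl at 18.6 ± 5.29, Tfeb at 12.9 ± 2.76 and Lamp2 at 12.8 ± 1.70 FPKM. Asah1 followed at 6.48 ± 0.617 FPKM and Syt7 was lowest at 0.484 ± 0.150 FPKM. Smpd1 and Ctsl did not differ beyond their spread, nor did Tfeb and Lamp2, and each of the other steps in this order was larger than the SDs on both sides, apart from Ctsl to Tfeb. In mutants the top 3 and the bottom 2 kept these places, with Lamp1 at 142 ± 16.6 FPKM and Syt7 at 0.474 ± 0.0758 FPKM.

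Acid sphingomyelinase and acid ceramidase RNA differed least between the groups in the fit without covariates. With sex as a covariate, which sets the male mutant alone against the controls, the log2 fold change was 0.0769 for Smpd1 (SE 0.21) and 0.16 for Asah1 (SE 0.21). Smpd1 (ENSMUSG00000037049) stood at 74.8, 57.3 and 71.1 CPM in controls 1, 2 and 3 and at 68.6, 62.2 and 71.4 CPM in mutants 1, 2 and 3. All 3 mutants lay inside the range of the controls. The log2 fold change was -0.01 (SE 0.14), and its 95% interval corresponds to a ratio of mutant to control from 0.789 to 1.26. Asah1 (ENSMUSG00000031591) had 22.0, 19.9 and 24.1 CPM in controls 1, 2 and 3 and 22.7, 18.8 and 24.6 CPM in mutants 1, 2 and 3. Both the lowest and the highest Asah1 value came from mutants, and the interval of the ratio was 0.786 to 1.28. Ratios inside these intervals were not excluded with 3 animals a group, and the intervals are not limits of detection.

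Sphingolipid enzymes outside the lysosome held larger differences that also did not pass. Of 19 tested, 13 were above 0 and 0 were called, with 1 at an unadjusted p below 0.05 in edgeR (5.26%, against 6.94% of all genes). That gene, Smpd3, encodes neutral sphingomyelinase 2, which makes ceramide at the plasma membrane and Golgi. It stood at 1.62, 0.997 and 2.06 CPM in controls and 4.44, 1.96 and 3.61 CPM in mutants (log2 1.10, SE 0.40, edgeR adjusted p = 0.655), so mutant 2 overlapped the controls. Acer2, the Golgi alkaline ceramidase, stood at 3.72 ± 1.07 and 5.75 ± 1.69 CPM (SD, n = 3 each; edgeR adjusted p = 0.777). Ugcg, which glucosylates ceramide, was at 43.3 CPM in control 2 and at 8.99 to 11.9 CPM in the other 5 libraries, and its log2 fold change was -1.15 (edgeR adjusted p = 0.777).

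Mean RNA of the 3 cathepsins was slightly higher in mutants, with overlap between groups for Ctsd and Ctsl and none for Ctsb. Ctsb (ENSMUSG00000021939), a cysteine protease, stood at 325, 315 and 329 CPM in controls and 411, 350 and 351 CPM in mutants. It was the 1 member of 9 whose groups did not overlap, where 5.97% of all genes had every mutant above every control. The difference was 0.20 on the log2 scale (SE 0.13, edgeR adjusted p = 0.837), the ratio having an interval of 0.922 to 1.43. Mutant 1 carried the highest Ctsb, and the summed macrophage markers were also highest there, at 328 CPM against 168 to 262 CPM in the other 5 libraries. The part of macrophages in the Ctsb values was not tested.

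Ctsd (ENSMUSG00000007891), the aspartic protease of lysosomes, stood at 256, 229 and 167 CPM in controls and 246, 240 and 190 CPM in mutants. The groups overlapped fully, and the ratio had an interval of 0.751 to 1.43. Ctsl (ENSMUSG00000021477), another cysteine protease, stood at 103, 161 and 99.1 CPM in controls and 140, 142 and 122 CPM in mutants. Control 2 was the highest library for Ctsl and the remaining controls were the lowest, so its difference depended on which control was left out. With all libraries the log2 fold change was 0.15 (SE 0.21, edgeR adjusted p = 0.936). Without control 2 it was 0.41, with an unadjusted p of 0.021 and an edgeR adjusted p = 0.525. It was 0.0453 without control 1, 0.0217 without control 3 and 0.0169 with sex as a covariate.

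Other lysosomal proteases were all on the side of the mutants: the 11 tested were above 0, with a median log2 fold change of 0.21 and a range of 0.04 to 0.86, and 0 were called or reached an unadjusted p below 0.05. Ctsa, the protective protein of neuraminidase, stood at 57.1 ± 6.37 and 68.4 ± 4.62 CPM (SD, n = 3 each; edgeR adjusted p = 0.779), and all mutants lay above all controls. Ctss, a protease best known from antigen-presenting cells, was at 27.8 CPM in mutant 1 and at 5.75 to 12.9 CPM in the other libraries. Tpp1, a tripeptidyl peptidase, stood at 52.5 ± 6.54 and 61.4 ± 4.82 CPM. Of 3 cathepsin inhibitors tested, all 3 were below 0, and Cst3 (cystatin C) stood at 334 ± 48.6 and 309 ± 35.1 CPM. Macrophages, which make lysosomal proteases in abundance, had 18 of 21 markers above 0 with a median of 0.22 and 0 called. These markers summed to 168 to 262 CPM in controls and 214 to 328 CPM in mutants. Lyz2 was the most abundant of them and no marker was at 0 in any library. Their part in the protease values was not tested.

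Lysosomal membrane proteins showed no common direction. Lamp1 (ENSMUSG00000031447) stood at 395, 331 and 351 CPM in controls and 407, 403 and 328 CPM in mutants. Both female mutants were above every control, and the male mutant was the lowest library of all. The log2 fold change was 0.08 (SE 0.15) with an interval of the ratio from 0.823 to 1.36. Lamp2 (ENSMUSG00000016534), which also serves chaperone-mediated autophagy and lies on the X chromosome, stood at 108, 140 and 119 CPM in controls and 103, 101 and 109 CPM in mutants. Mutant 3 reached just above control 1, so the groups overlapped by that pair of libraries. Its difference on the log2 scale, -0.23 (SE 0.14, edgeR adjusted p = 0.814), moved to -0.12 without control 2, the library with the highest Lamp2.

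Counting without regard to strand lowered Lamp1. The deposited matrix equals the unstranded count although the libraries were directional, and the gene Grtp1 overlaps Lamp1 on the opposite strand in GENCODE M21. Lamp1 had 15825, 14620 and 13793 read pairs in controls and 15412, 14608 and 12891 in mutants by the unstranded count. By the strand-matched count it had 20695, 19083 and 18253 in controls and 20378, 19604 and 16734 in mutants. Unstranded counting thus left out 23.0% to 25.5% of the Lamp1 pairs in each library, against 1.38% to 2.17% for Ctsb, which overlaps Fdft1, and at most 0.982% for each of the other members. With strand-matched counts Lamp1 stood at 442 ± 40.7 and 470 ± 61.5 CPM (SD, n = 3 each) and its log2 fold change was 0.09. The level of Lamp1 therefore depended on the counting and its difference between groups did not. Antisense reads were few for all 9 genes, at 0.11% to 0.69% of the reads given to a strand.

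**Figure D2:**
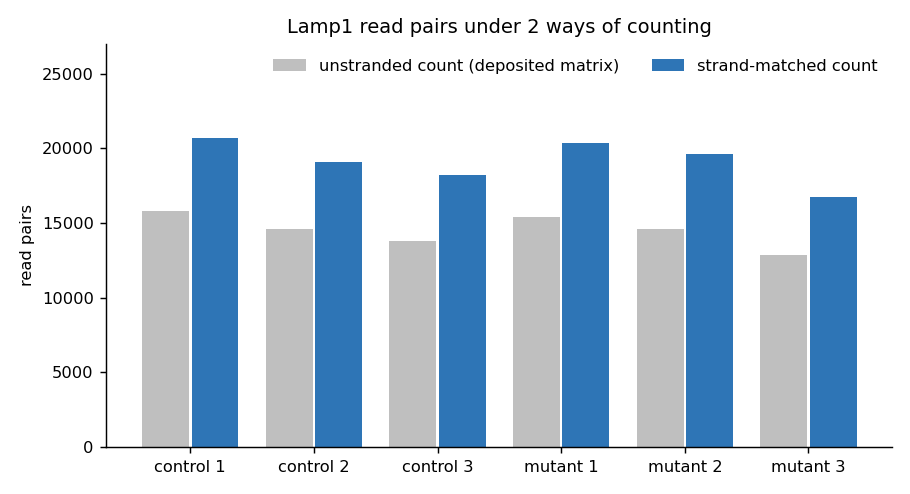
Lamp1 read pairs (vertical axis, from 0) in each library by the unstranded count of the deposited matrix (grey) and by the strand-matched count (blue). The unstranded count is lower in all 6 libraries, by a like share of 23.0% to 25.5%.

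Syt7 (ENSMUSG00000024743), the calcium sensor of lysosome exocytosis, was the scarcest member. It stood at 4.92, 2.88 and 3.08 CPM in controls and 3.15, 3.31 and 4.20 CPM in mutants, from 119 to 197 read pairs per library. The highest value was control 1 and the lowest control 2, with all mutants between them. The log2 fold change was -0.03 (SE 0.28), and the interval of the ratio, 0.625 to 1.54, was wide. Among 10 other synaptotagmins tested, 6 were above 0 and 0 were called. Syt15 stood at 1.59 ± 0.353 and 2.45 ± 0.511 CPM with no overlap between groups (edgeR adjusted p = 0.749). Syt3 had 4.84, 6.39 and 1.68 CPM in mutants 1, 2 and 3, against 0.788 to 3.07 CPM in controls, and Syt12 ran from 0.816 to 7.63 CPM among the controls alone.

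Genes of lysosome movement and fusion were mostly lower, again without a call: 14 of 21 were below 0, the median was -0.04, and 0 reached an unadjusted p below 0.05. Rab10, a small GTPase of vesicle traffic, stood at 539, 365 and 599 CPM in controls and 353, 395 and 336 CPM in mutants (log2 -0.47, SE 0.21, edgeR adjusted p = 0.734). Control 2 lay among the mutants for Rab10. Rab7, which governs late endosomes and lysosomes, stood at 322, 177 and 255 CPM against 186, 177 and 205 CPM, with the same control nearest to the mutants. Vamp8, a SNARE of lysosomal fusion, stood at 30.7 ± 1.81 and 24.2 ± 4.30 CPM (edgeR adjusted p = 0.754), every mutant being below every control, as 6.09% of all genes were.

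Tfeb (ENSMUSG00000023990) had the widest difference among the 9 members, and its values in mutants split by sex. The male controls had 87.0, 56.2 and 76.5 CPM, female mutants 1 and 2 had 114 and 120 CPM, and the male mutant 3 had 72.0 CPM. Both females were above every male, and the male mutant lay inside the range of the controls. The log2 fold change was 0.48 (SE 0.24, 95% interval -0.09 to 1.05, edgeR adjusted p = 0.779). With sex as a covariate it was -0.02 (SE 0.26, interval -0.66 to 0.62, edgeR adjusted p = 0.992). Because every control was male, a sex difference and a response in 2 of 3 mutants cannot be told apart. The sex covariate also turned Lamp1 to -0.13 and Ctsd to -0.19, and moved Ctsl from 0.15 to 0.0169, Ctsb from 0.20 to 0.12 and Lamp2 from -0.23 to -0.17.

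**Figure D3:**
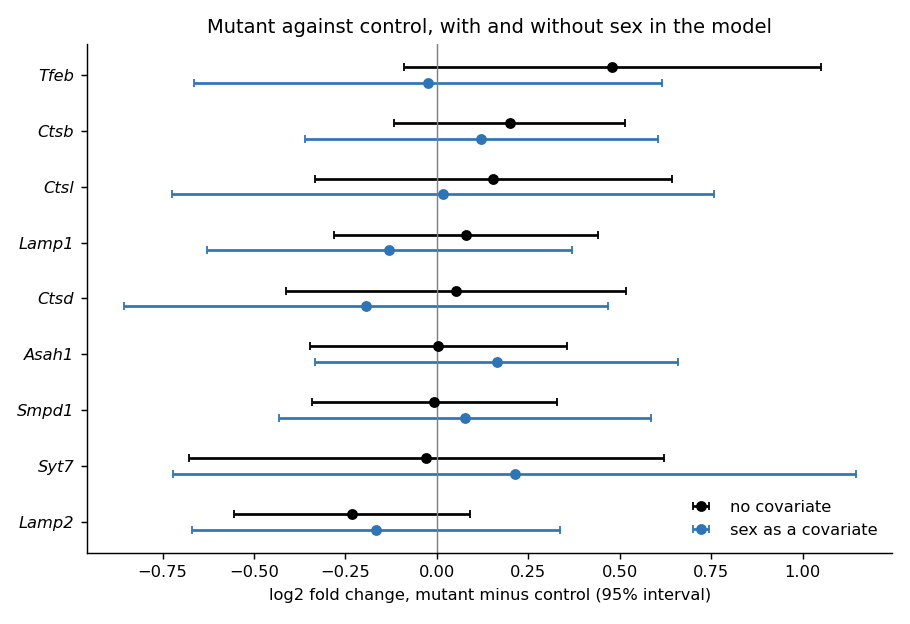
Log2 fold change, mutant minus control (horizontal axis), of each member with its 95% interval, from the edgeR fit without covariates (black) and with sex as a covariate (blue). Every interval includes 0, and Tfeb moves from 0.48 to -0.02 when sex enters the model.

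The expression profile of Tfeb over the 6 libraries was closest to those of Kdm8, Immp1l, Fam189b, Gm3235 and Dpp7, measured as the root mean square difference of log2 CPM centred on each gene's mean. These differences were 0.0415, 0.0815, 0.105, 0.110 and 0.111 among 12721 genes compared. Kdm8, a JmjC-domain protein, stood at 9.94, 6.32 and 8.98 CPM in controls and 12.5, 13.0 and 7.91 CPM in mutants. Like Tfeb, it was highest in the female mutants and lowest in control 2.

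Relatives and regulators of Tfeb were lower in 13 of 21 cases with 0 called. Fnip1, a partner of folliculin in signalling to Tfeb, was the 1 gene at an unadjusted p below 0.05 in edgeR (4.76%, against 6.94% of all genes). It stood at 62.2 ± 6.89 and 78.0 ± 4.63 CPM with no overlap (log2 0.33, SE 0.13, edgeR adjusted p = 0.695). Rragd, a Rag GTPase that recruits the mTOR complex to lysosomes, stood at 424, 404 and 537 CPM in controls and 351, 404 and 339 CPM in mutants, so control 2 and mutant 2 were nearly level. Mtor itself stood at 58.9 ± 12.4 and 44.8 ± 3.15 CPM (edgeR adjusted p = 0.726).

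Tfeb binds a palindrome built on CACGTG, known as the CLEAR element, and promoters of members were read to show where these letters lie. RefSeq promoter windows (GRCm38.p6, 250 bases before to 50 after a gene's start) matched 6 of the 9 members, and 3 of the 6 held CACGTG on either strand. Lamp1 held 4 copies, Ctsd 2 and Ctsl 1, while Smpd1, Lamp2 and Tfeb held 0. The longer palindrome TCACGTGA, which contains the former, was found in Ctsd alone. The 250 bases before the start are printed for the 2 members with several copies, with CACGTG in capitals:
Lamp1, chr8:13158911-13159160, plus strand: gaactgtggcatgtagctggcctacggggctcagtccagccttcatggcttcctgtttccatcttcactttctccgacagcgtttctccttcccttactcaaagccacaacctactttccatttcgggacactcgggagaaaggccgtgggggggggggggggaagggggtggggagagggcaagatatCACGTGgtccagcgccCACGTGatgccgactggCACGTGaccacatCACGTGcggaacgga
Ctsd, chr7:142387828-142388077, minus strand: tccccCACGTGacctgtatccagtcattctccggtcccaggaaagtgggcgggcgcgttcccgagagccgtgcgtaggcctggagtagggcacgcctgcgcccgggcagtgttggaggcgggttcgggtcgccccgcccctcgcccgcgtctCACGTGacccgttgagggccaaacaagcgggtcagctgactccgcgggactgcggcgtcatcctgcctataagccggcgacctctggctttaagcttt

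In Lamp1 the 4 copies start 61, 45, 28 and 15 bases before the gene's start, and in Ctsd they start 245 and 98 bases before it. The other lists of lysosome biology, given below, include some genes that act outside the lysosome. Of 151 list genes with a window 23.8% held CACGTG. The share was 11.3% of the 11183 tested genes with a window and 8.09% of all genes in the RefSeq table. TCACGTGA was in 7.28% of the 151 and in 2.07% of the 11183. A match of letters is not a bound site. Of the 35 tested list genes with CACGTG in the window, 25 were above 0 (71.4%, median log2 fold change 0.16). Of list genes without it 61 of 108 were above 0 (56.5%, median 0.03), as a description with no test. Over all tested genes 51.5% were above 0 with CACGTG and 51.0% without it.

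Beyond the 9 members, 181 other genes from 12 lists of lysosome biology were tested and 0 were called by edgeR. These lists also hold sphingolipid enzymes outside the lysosome, synaptotagmins and regulators such as Mtor. Among the 181, 8 reached an unadjusted p below 0.05 (7 above 0, 1 below), which is 4.42% against 6.94% of all genes. Of the 181, 104 were above 0 (57.5%) and the median was 0.04. No overlap between groups was seen in 20 with mutants higher (11.05%, against 5.97% of all genes) and in 11 with mutants lower (6.08%, against 6.09%), as a description with no test. Lysosomal glycosidases and sulfatases, which strip sugars and sulfates, had 20 of 24 above 0 with a median of 0.18 and 2 at an unadjusted p below 0.05. Lipid-handling genes of the lysosome had 6 of 10 above 0, with a median of 0.18. With sex as a covariate, which sets the male mutant alone against the controls, the median of the 181 was -0.02.

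Man2b1, the lysosomal alpha-mannosidase, showed the smallest p among these genes. It stood at 10.5, 9.06 and 13.1 CPM in controls and 22.3, 19.3 and 17.1 CPM in mutants, with no overlap. The log2 fold change was 0.85 (SE 0.18, edgeR adjusted p = 0.321). DESeq2 called it (adjusted p = 0.0159), as did the authors' deposited table (adjusted p = 0.023), and limma-voom did not (adjusted p = 0.349). It was the 1 gene of the 181 that DESeq2 called, where DESeq2 called 1.18% of all genes. The direction held in all 17 settings, from 0.66 to 1.00. With sex as a covariate edgeR gave 0.66, a value that rests on the male mutant alone.

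Gm2a, the activator protein that presents gangliosides to hexosaminidase, stood at 14.3 ± 1.68 and 20.5 ± 1.47 CPM with no overlap (log2 0.52, SE 0.14, edgeR adjusted p = 0.496). Npc2, a carrier of cholesterol in the lysosome, stood at 49.8, 41.8 and 46.5 CPM in controls and 55.7, 50.9 and 53.4 CPM in mutants, also with no overlap (edgeR adjusted p = 0.812). Acp5, the tartrate-resistant phosphatase of osteoclasts and macrophages, overlapped, at 0.589 to 2.30 CPM and 1.59 to 3.61 CPM. Naglu and Sgsh, which degrade heparan sulfate, stood at 5.38 ± 0.832 and 7.38 ± 0.809 CPM and at 4.31 ± 0.737 and 5.78 ± 0.477 CPM, each without overlap (edgeR adjusted p = 0.701 and 0.762). None of these 5 passed the test, and they were named for the smallest p in their lists. Every mutant was above every control in 16.7% of the glycosidase and sulfatase list and in 20% of the lipid-handling list. Over all genes the share was 5.97%. No tested gene of either list had every mutant below every control.

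Proteins of the lysosomal membrane had 11 of 16 above 0 and 0 called. Mcoln1, the calcium channel through which lysosomes signal to Tfeb, stood at 22.3, 19.3 and 20.9 CPM in controls and 24.2, 26.4 and 23.4 CPM in mutants (log2 0.24, SE 0.12, edgeR adjusted p = 0.777). Its groups did not overlap. The chloride-proton exchanger Clcn7 stood at 20.9 ± 1.51 and 24.7 ± 0.637 CPM and the Batten disease gene Cln3 at 4.59 ± 0.652 and 6.00 ± 0.568 CPM, likewise without overlap (edgeR adjusted p = 0.777 for both). In the other direction, Scarb2, the receptor that carries glucocerebrosidase to lysosomes, stood at 158 ± 5.02 and 140 ± 11.7 CPM, and Laptm4a, a lysosomal membrane protein, at 313 ± 16.3 and 272 ± 19.1 CPM. Both had every mutant below every control (edgeR adjusted p = 0.843 and 0.832) and were named after their values were seen. Of the 16 genes, 4 had every mutant above every control (25%, against 5.97% of all genes). Every mutant was below every control in 2 (12.5%, against 6.09% of all genes), as a description with no test. The list's summed level was 855 to 882 CPM in controls and 807 to 814 CPM in mutants.

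The vacuolar ATPase, the proton pump that acidifies lysosomes, was divided. Of 18 subunits and accessory genes tested, 6 were above 0 and 12 below, with 0 called. Atp6v0c, the membrane ring subunit, stood at 38.9, 34.1 and 25.5 CPM in controls and 47.2, 51.3 and 50.6 CPM in mutants (log2 0.60, SE 0.17, edgeR adjusted p = 0.53). Atp6v1a, the catalytic subunit, stood at 31.1, 56.6 and 32.4 CPM against 25.5, 29.2 and 27.4 CPM (log2 -0.55, SE 0.24, edgeR adjusted p = 0.733), with control 2 well above every other library. Atp6ap2 stood at 25.4 ± 2.96 and 20.7 ± 1.20 CPM (edgeR adjusted p = 0.749). Each of these 3 genes, named for the smallest p of the list, had groups that did not overlap, and in different directions. Every mutant was above every control in 5.56% of the list, against 5.97% of all genes. Every mutant was below every control in 11.1% of the list, against 6.09% of all genes, as a description with no test.

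Sorting of enzymes to the lysosome included 2 genes at an unadjusted p below 0.05, on opposite sides of 0, among 12 tested with 0 called. That is 16.7% of the list, against 6.94% of all genes in edgeR. Sort1, the sorting receptor sortilin, stood at 160, 150 and 187 CPM in controls and 98.2, 138 and 111 CPM in mutants (log2 -0.52, SE 0.17, edgeR adjusted p = 0.615). Nagpa, which uncovers the mannose 6-phosphate tag, stood at 6.07 ± 0.820 and 8.51 ± 0.888 CPM (edgeR adjusted p = 0.656). Neither pair of groups overlapped, and both genes were named for their small p. Every mutant was above every control in 8.33% of the list, against 5.97% of all genes. Every mutant was below every control in 16.7% of the list, against 6.09% of all genes, as a description with no test. Gnptg, a subunit of the enzyme that adds the tag, stood at 11.5 ± 1.38 and 13.6 ± 2.01 CPM with overlap.

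Autophagy genes had 11 of 17 above 0, a median of 0.03 and 0 called. Map1lc3a, an LC3 gene, was at 462 CPM in control 2, at 249 and 183 CPM in the other controls and at 176 to 197 CPM in mutants, with a log2 fold change of -0.70 (edgeR adjusted p = 0.754). Atg5, of the LC3 conjugation machinery, stood at 17.8 ± 1.14 and 14.6 ± 0.848 CPM with no overlap (log2 -0.29, SE 0.12, edgeR adjusted p = 0.726). Bnip3, a mitophagy receptor, stood at 104 ± 14.1 and 83.5 ± 7.48 CPM with overlap.

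**Figure D4:**
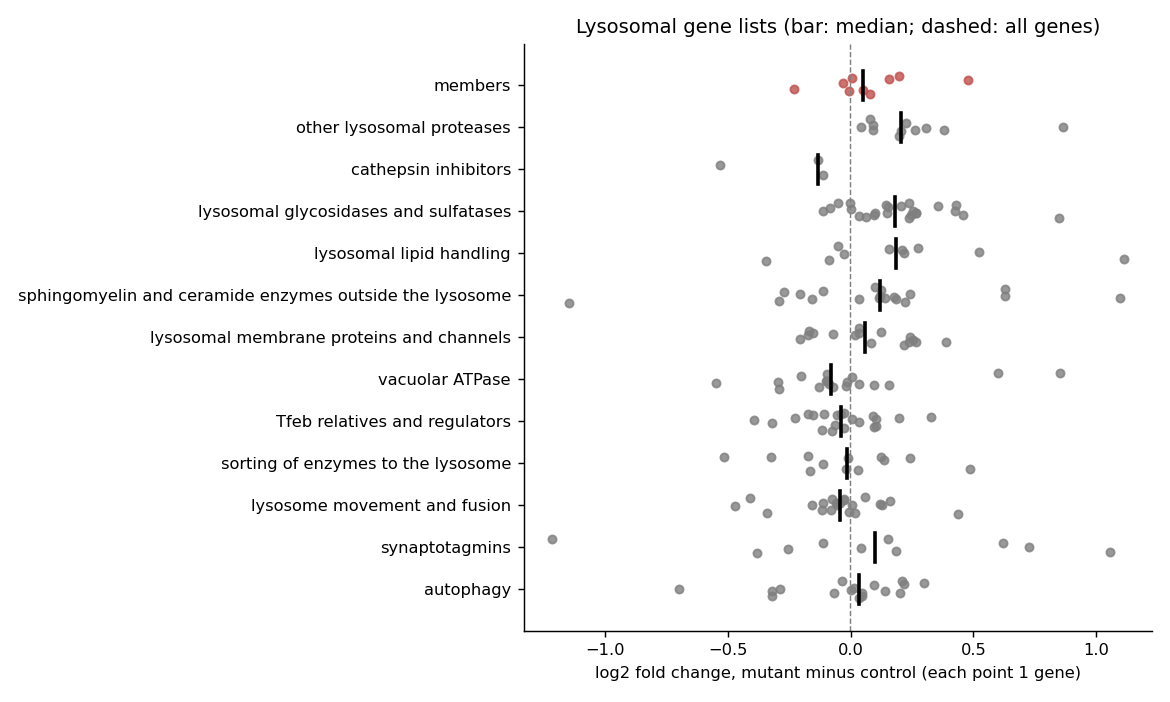
Log2 fold change, mutant minus control (horizontal axis), of every tested gene in the member set (red) and in the 12 other lists (grey); black bars are list medians and the dashed line is the median of all genes tested. Proteases lie to the right of 0, the vacuolar ATPase and the fusion genes centre just left of it, and no point passed the edgeR test.

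Muscle fibre markers checked the tissue. Myh4 and Acta1 were the most abundant of the 12 and the summed level was 159584 to 204462 CPM in controls and 165801 to 195365 CPM in mutants. Neutrophil markers summed to 8.90 to 29.1 CPM in controls and 2.98 to 9.28 CPM in mutants, with all 6 tested markers below 0 and 0 called. Of these, 5 had an unadjusted p below 0.05 in edgeR, as 6.94% of all genes did. Every mutant was below every control in 5, as in 6.09% of all genes. Ngp and Camp, named here after their values were seen, were too low to test and had 0 counts in mutant 3. Endothelial markers summed to 293 to 296 CPM in controls and 306 to 429 CPM in mutants, with all 8 tested above 0, a median of 0.24 and 0 called. The part of these cell types in the lysosomal values was not tested.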

How the data were processed

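Counts were deposited as raw read pairs per gene for 6 poly(A) libraries. The authors' count matrix equals the unstranded column of the per-library files, which also hold a count for each strand. STAR 2.7.11b, DESeq2 1.50.2 and the build GRCm39 are named in the submitters' processing notes; the annotation release and the counting settings are not stated in any source used here. The authors' deposited table holds log2 fold changes, standard errors, Wald scores, p-values and mean normalized signal, per the file headers, and was used only where named. Entries that name no gene made up 18.5% to 22.3% of pairs and were left out.

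Mutants were compared with controls with the deposited counts in edgeR 4.0.16 under R 4.3.3: TMM, filterByExpr (minimum count 10), a robust quasi-likelihood F-test with no covariate, and Benjamini-Hochberg adjustment over 15589 genes, called below 0.05. Intervals are 95%, from the fit's standard error. Alternatives were run with DESeq2 1.42.0, limma 3.58.1 (voom), other normalizations and filters, sex, the replicate number, males only, strand-matched counts and each library left out. At these depths 3 counts in 1 library correspond to 0.0686 to 0.0856 CPM, for counting error only. No 2 libraries agreed within sampling noise (lowest chi-square 49.4 per degree of freedom). Genes were named from GENCODE M21, built on GRCm38, so no gene coordinates are given apart from the RefSeq windows.

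The members and lists were chosen with earlier results of these data known. Named genes are all members with a row, any called list gene, up to 3 genes with the smallest p and a mean of at least 1 CPM per lysosome list, Dysf, the 5 profiles nearest to the member with the widest difference, and, of each cell type list, the 2 most abundant genes and any at 0; some genes it takes are not reported here. Lists of fibroblast, adipocyte and Schwann cell markers had 4 of 8, 7 of 7 and 5 of 6 tested members above 0, and 0 called. The edgeR procedure was tested on simulated data, where most 2-fold changes were not called, so a gene not called here may still differ. Symbols matched 52081 of 57010 gene IDs, and 0 columns of the matrix belonged to no sample. Plots used matplotlib 3.10.9.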

Additional observations from a re-analysis of the deposited data

How the results depend on the processing

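No member was called in any of the 17 settings, and the smallest adjusted p of a member was 0.523 (edgeR, without mutant replicate 3, Tfeb). Ctsb, Ctsl and Lamp2 kept their direction in all settings. Over all genes 31 were called, against 184 with DESeq2, 79 with no filter and 0 with sex as a covariate or in males only (edgeR; 882 and 594 genes at an unadjusted p below 0.05). Leaving out 1 library gave 6 to 49 calls, with 49, 7 and 6 without control replicate 2 and mutant replicates 1 and 2. The replicate number as a block gave 11 calls. Deviations of same-numbered libraries from their group means had correlations of 0.173, -0.0607 and 0.178. Those of differently numbered libraries ran from -0.239 to 0.156. With 3 libraries a group these values cannot settle whether the numbers pair the animals. The median of the other lysosome lists was 0.04, but -0.0201 when sex was a covariate and -0.0178 in males only, and ran from 0.03 to 0.06 with a library left out.

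Sex as a covariate and males only turned Tfeb to -0.0234 and -0.0216, Lamp1 to -0.13 and -0.13, Ctsd to -0.19 and -0.19, Smpd1 to 0.0769 and 0.0788, Syt7 to 0.21 and 0.21, Syt3 to -0.30 and -0.29, Kdm8 to -0.0874 and -0.0859, and Immp1l to -0.0592 and -0.0575. Both settings set the same male mutant against the same controls, so they are not independent of each other. The causes were not tested, and 1 male mutant is assumed there to vary like the controls. Members near 0 changed sign elsewhere: Smpd1 was 0.0234 with upper-quartile scaling and 0.00039 with the replicate block, Syt7 was 0.00921 with limma-voom and 0.0019 with the replicate block, and Asah1 was -0.0023 with RLE, -0.0020 with DESeq2, -0.0015 with no filter and -0.00057 with the replicate block. With 1 library left out, Smpd1 ran from -0.11 to 0.0653, Asah1 from -0.0838 to 0.11, Ctsd from -0.11 to 0.18, Syt7 from -0.17 to 0.25, Cst6 from -0.87 to 0.17, Cst3 from -0.18 to 0.00628 and Cstb from -0.23 to 0.0314. Dysf was lower in mutants in every setting, and it was no longer called when sex was a covariate, in males only, or without any 1 mutant. Man2b1 became called with DESeq2.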
